A study of Mus musculus with 12 samples.

Results

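Imprinted genes that restrain or promote fetal growth were followed in RNA-seq counts from mouse kidneys. The 10 genes, called members below, were chosen by name as parts of the imprinted growth network (*Plagl1*, *Peg3*, *Ndn*, *Cdkn1c*, *Grb10*, *Dlk1*, *Mest*, *Sgce*, *H19* and *Meg3*), from a table of 54532 genes, of which 24642 passed a cutoff on low counts. All 10 passed that cutoff, and their raw counts per mouse ran from 9 (*Dlk1*) to 3197 (*Peg3*). The members were chosen with earlier results of these data known, which limits what their counts against all genes can show. The genes had been named for their fall after birth in normal organs. All mice here were 18 days old, so that fall was not measured.

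Imprinted genes are read from the copy of a single parent, and many of them sit in clusters that share a methylated control region. Several act on growth before birth through insulin-like growth factor signalling and the cell cycle, and their levels drop in most organs, the kidney included, as growth slows. *Plagl1* encodes a zinc finger factor that binds and regulates other imprinted genes, which is why these genes are described as a network.

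Whole kidneys of mice were measured in 4 groups of 3 mice, numbered 19 to 30, of a strain given as C57BL/6 in the labels and C57BL/6 J in the study's methods. Noncystic mice carried the hypomorphic RC allele of *Pkd1*, a missense allele, and a floxed *Pkd1* allele without Cre, written *Pkd1* RC/+. Cystic mice carried the same alleles with *Ksp* Cre, which recombines in tubule epithelium, written *Pkd1* RC/-. In each case *Pkd2* was +/+ or Δ17/Δ17, in which CRISPR editing had deleted the binding motif for miR-17 from the 3′-UTR of *Pkd2* in all cells. The RC allele was thus shared by all 12 mice, and Cre was present in the cystic groups only, so an effect of Cre and of *Pkd1* loss cannot be told apart. Mice 19, 20 and 21 were noncystic *Pkd2* +/+, mice 22, 23 and 24 noncystic *Pkd2* Δ17/Δ17, mice 25, 26 and 27 cystic *Pkd2* +/+, and mice 28, 29 and 30 cystic *Pkd2* Δ17/Δ17. Levels are given as CPM, counts scaled to a common library size with TMM factors. As a check of the tissue, 8 genes that define kidney, such as *Umod*, *Slc12a1* and *Lrp2*, summed to 4289 to 11112 CPM per mouse.

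Library totals ran from 18800307 to 24453033 counts. *Pkd2* lay between 194 and 219 CPM in noncystic *Pkd2* +/+ mice and between 270.5 and 286 CPM in noncystic Δ17/Δ17 mice. The matching cystic groups lay between 213 and 233 and between 307 and 337 CPM, so no mouse went against its *Pkd2* label. *Pkd1* lay between 50.4 and 81.6 CPM over all mice, and a gene total does not check the floxed exons. Single mice stood apart in genes of other tissues. The summed level of 8 liver genes, a list chosen after values were seen, was 654 CPM in mouse 25 and 209 CPM in mouse 30, against 24.5 to 61.4 CPM in the others. The summed level of 10 adrenal gland genes was 67.2 CPM in mouse 27 and 485 CPM in mouse 30, against 4.15 to 8.01 CPM in the others, and 8 fat genes summed to 911 CPM in mouse 20 and to 29.05 CPM in mouse 29. Calls of members and of *Peg10* that rest on mouse 20, 25, 27 or 30 are also given without that mouse.

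*H19*, *Meg3* and *Mest* are hosts of microRNAs, which is why their mature sequences are shown. *H19* (long noncoding RNA, GRCm38 chromosome 7, 142575529 to 142578143, reverse strand) holds miR-675. *Meg3* (long noncoding RNA, chromosome 12, 109541001 to 109571726, forward strand) holds miR-1906 and miR-770. *Mest* (protein coding, chromosome 6, 30723547 to 30748465, forward strand) holds miR-335. The sequences are from RefSeq (GRCm38.p6), and capitals mark the seed, bases 2 to 8. The counts here are of host gene reads and do not measure the mature microRNAs.
miR-675-5p: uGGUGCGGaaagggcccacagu
miR-675-3p: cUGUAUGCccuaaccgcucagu
miR-1906: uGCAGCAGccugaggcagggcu
miR-770-5p: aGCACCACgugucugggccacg
miR-770-3p: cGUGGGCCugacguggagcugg
miR-335-5p: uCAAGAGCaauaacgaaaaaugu
miR-335-3p: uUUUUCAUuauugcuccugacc
These 7 seeds differ from each other and from the seed of miR-17, whose site was removed from *Pkd2*. The mature miR-17-5p and the unedited *Pkd2* site are shown because they define the deletion. In the site the capitals mark the seed match, whose first base is nucleotide 133 of the 3′-UTR.
miR-17-5p: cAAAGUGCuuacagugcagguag
*Pkd2* site: taattttctGCACTTTaatttattt
Among the 8 protein-coding members, 0 hold the letters GCACTTT in their longest annotated 3′-UTR. Over the 16820 tested genes with an annotated 3′-UTR, 13.6% hold them. This says only that these letters are not in those windows.

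Per length of annotated exons, the members spanned a wide range of levels. In noncystic *Pkd2* +/+ kidneys, *Cdkn1c* stood first at 53.4 ± 9.67 CPM per kilobase (SD, n = 3). It was followed by *Peg3* (9.32 ± 0.999 CPM per kilobase) and *Grb10* (7.29 ± 0.609 CPM per kilobase). Next came *Ndn*, *H19*, *Mest* and *Plagl1*, with means between 6.12 and 2.81 CPM per kilobase. The ranges of *Grb10* and *Ndn*, of *Ndn* and *H19*, and of *Mest* and *Plagl1* overlapped, and the other neighbours in the order did not. *Sgce* (1.99 ± 0.0269), *Dlk1* (0.834 ± 0.276) and *Meg3* (0.458 ± 0.0661 CPM per kilobase) were the lowest. In cystic *Pkd2* +/+ kidneys, *Cdkn1c* was still the highest, at 19.5 ± 7.11 CPM per kilobase, and *Dlk1* was the lowest, at 0.192 ± 0.160 CPM per kilobase.

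The first comparison asked how the members differed between cystic and noncystic kidneys with an intact *Pkd2* 3′-UTR. Of the 10 members, 8 passed the test (quasi-likelihood test of edgeR, p-values adjusted over all genes tested by Benjamini-Hochberg), where 31.1% of all genes tested passed. *Plagl1*, *Ndn*, *Grb10*, *Sgce* and *Meg3* were higher in cystic kidneys (5 members, against 16.9% of all genes called higher). *Cdkn1c*, *Dlk1* and *Peg3* were lower (3 members, against 14.2% called lower). The groups did not overlap for these 8 members, against 41.7% of all genes. *H19* and *Mest* did not pass. The median log2 fold change was 0.40 over the members and 0.02 over all genes tested. When libraries were scaled by their totals instead of TMM, the median of all genes shifted by 0.16 and 71.7% of all calls were higher, against 54.4% with TMM. Of the members 6 were then called higher and 2 lower. The share of all genes also depended on the cutoff for low counts. Among genes with at least 10 counts in every mouse, 7339 of 14769 passed, and 7 of the 9 members tested there. In *Pkd2* Δ17/Δ17 mice, 6 of 10 members passed, where 23% of all genes tested passed. The higher members were *Plagl1*, *Ndn*, *Grb10*, *Sgce* and *Mest* (5, against 12.8%), and the lower member was *Dlk1* (1, against 10.2%). Here 8 of 10 members did not overlap between the groups, against 37.9% of all genes, and the median log2 fold change of the members was 0.56. With library totals the median of all genes shifted by 0.15, 76.3% against 55.7% of all calls were higher, and 6 members were called higher and 0 lower. With at least 10 counts in every mouse, 5838 of 14769 genes passed, and 6 of the 9 members tested there. By parental copy, 3 of the 6 members usually read from the paternal copy were called higher and 2 lower with *Pkd2* +/+. Of the 4 usually read from the maternal copy, 2 were called higher and 1 lower. Reads were not assigned to parental copies.

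**Figure D1:**
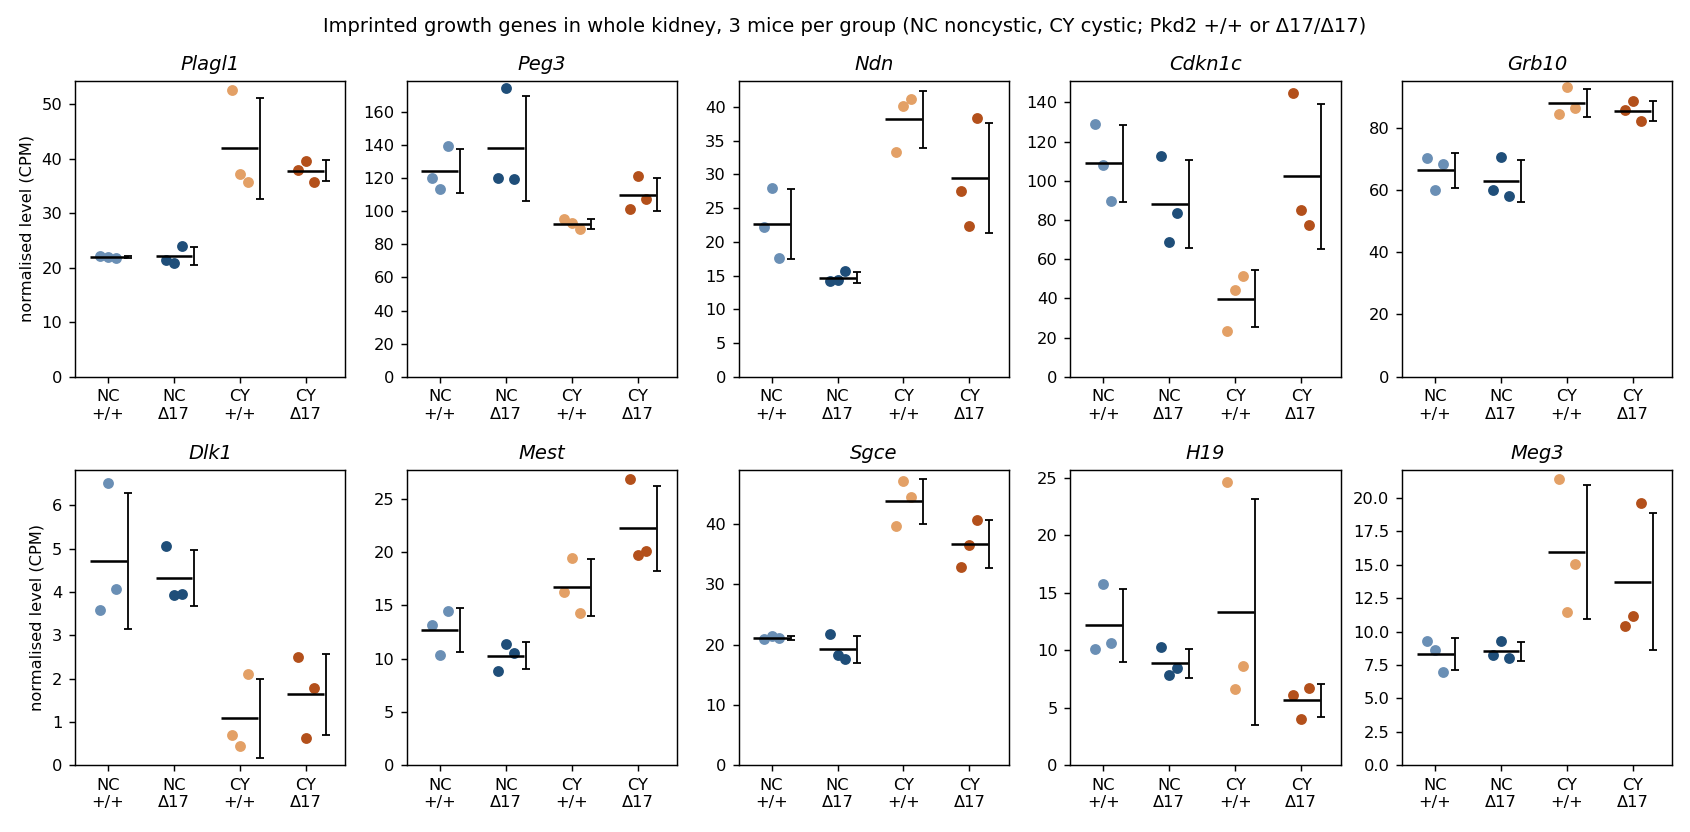
Normalised level (CPM, vertical axes from 0) of the 10 members in each of 12 mice, by group; points are mice, horizontal lines group means and vertical bars the SD over 3 mice. The cystic mice lie above all noncystic mice for *Plagl1*, *Grb10*, *Sgce* and *Meg3*, and below them for *Dlk1*, and *Cdkn1c* is lowest in the cystic *Pkd2* +/+ mice.

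*Plagl1* (ENSMUSG00000019817, GRCm38 chromosome 10, 13060504 to 13131694, forward strand) is the first of the nuclear growth regulators described here. It was 22.2, 22.01 and 21.7 CPM in noncystic *Pkd2* +/+ mice and 52.6, 37.2 and 35.8 CPM in cystic ones. With the motif deleted it was 21.4, 20.9 and 23.9 CPM in noncystic and 38.0, 39.5 and 35.7 CPM in cystic mice. All 6 cystic mice lay above all 6 noncystic mice, which differed little from each other. The log2 fold change was 0.93 ± 0.12 (SE; adjusted p = 2.00e-05) with *Pkd2* +/+ and 0.77 ± 0.12 (adjusted p = 0.000224) with the deletion. The highest value was in mouse 25, and without it the first fold change was 0.73 on the log2 scale. *Phactr2*, the neighbour of *Plagl1* on its chromosome, moved with it, by 1.17 ± 0.12 (adjusted p = 1.15e-06).

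*Peg3* (ENSMUSG00000002265, chromosome 7, 6703892 to 6730431, reverse strand) encodes a zinc finger protein linked to cell survival. Its level was 120.1, 113 and 139 CPM in noncystic and 95.3, 92.8 and 89.3 CPM in cystic *Pkd2* +/+ mice. With the deletion it was 120.0, 174 and 119.5 CPM in noncystic and 102, 121 and 107 CPM in cystic mice. The groups were apart with *Pkd2* +/+ and overlapped with the deletion, where cystic mouse 29 lay above noncystic mice 22 and 24. The log2 fold changes were -0.43 ± 0.12 (adjusted p = 0.0147) and -0.33 ± 0.12 (adjusted p = 0.0714). The call with *Pkd2* +/+ did not hold when mouse 27 (adjusted p = 0.0526) or mouse 21 (adjusted p = 0.0585) was left out, or without mice 27 and 30 (adjusted p = 0.0619). It was also lost when libraries were scaled by their totals (adjusted p = 0.128) and with limma-trend, the study's method (adjusted p = 0.135). The neighbouring *Zim1* also fell, with log2 fold changes of -1.93 ± 0.21 and -1.49 ± 0.21. The ratio of *Peg3* to *Zim1* CPM was 3.04 to 4.35 in the noncystic mice and 6.88 to 12.2 in the cystic mice.

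*Ndn* (ENSMUSG00000033585, chromosome 7, 62346569 to 62350262, forward strand, 1 exon) encodes necdin, a protein that restrains growth in cells that have left the cycle. It was 22.2, 28 and 17.7 CPM in noncystic and 33.4, 40.1 and 41.1 CPM in cystic *Pkd2* +/+ mice. In Δ17/Δ17 mice the values were 14.2, 14.3 and 15.7 CPM in noncystic and 27.6, 22.3 and 38.3 CPM in cystic mice. Within each *Pkd2* genotype every cystic mouse lay above every noncystic mouse. Its log2 fold changes between cystic and noncystic kidneys were 0.76 ± 0.18 (adjusted p = 0.003) and 1.0 ± 0.18 (adjusted p = 0.000594). Without mouse 30, the highest of its group, the second was 0.76 and still passed. Without mouse 20, the highest noncystic mouse, the first was 0.92 and passed.

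*Cdkn1c* (ENSMUSG00000037664, chromosome 7, 143458339 to 143461050, reverse strand) encodes p57, an inhibitor of cyclin-dependent kinases that is abundant in podocytes, the filter cells of the glomerulus. It was 129, 108 and 89.7 CPM in noncystic and 23.5, 44.3 and 51.5 CPM in cystic *Pkd2* +/+ mice. In Δ17/Δ17 mice the values were 113, 68.5 and 83.3 CPM in noncystic and 145, 85.0 and 77.2 CPM in cystic mice. The cystic *Pkd2* +/+ mice lay below every other mouse, and the remaining 3 groups overlapped. The log2 fold change between cystic and noncystic kidneys was -1.46 ± 0.27 (adjusted p = 0.000403) with *Pkd2* +/+ and 0.21 ± 0.26 (adjusted p = 0.629) with the deletion. The lowest value was in mouse 25, and without it the first of these was -1.19. Of the exon bases of *Cdkn1c*, 30.7% overlap *Gm44732* on the other strand. The strand setting of the counting is not given in the sources used here. Counting without regard to strand leaves reads of that stretch out as ambiguous, so the count of *Cdkn1c* is uncertain.

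Podocyte and vessel cell genes moved beside *Cdkn1c*. The 7 other podocyte genes of the list summed to 623 to 749 CPM in noncystic mice, 349 to 412 CPM in cystic *Pkd2* +/+ mice and 396 to 481 CPM in cystic Δ17/Δ17 mice. Of the 8 podocyte genes, *Cdkn1c* included, 7 were lower and *Synpo* was higher in cystic *Pkd2* +/+ kidneys. *Nphs1*, which encodes nephrin of the filter slit, changed by -1.44 ± 0.20, and *Ptpro*, a podocyte phosphatase, by -1.37 ± 0.14 on the log2 scale. The 8 endothelial genes summed to 1126 to 1254 CPM in noncystic mice, 708 to 863 CPM in cystic *Pkd2* +/+ and 843 to 1049 CPM in cystic Δ17/Δ17 mice. The part of these cells in the *Cdkn1c* result was not tested. In bulk tissue, fewer cells of a type and less RNA per cell cannot be told apart.

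**Figure D2:**
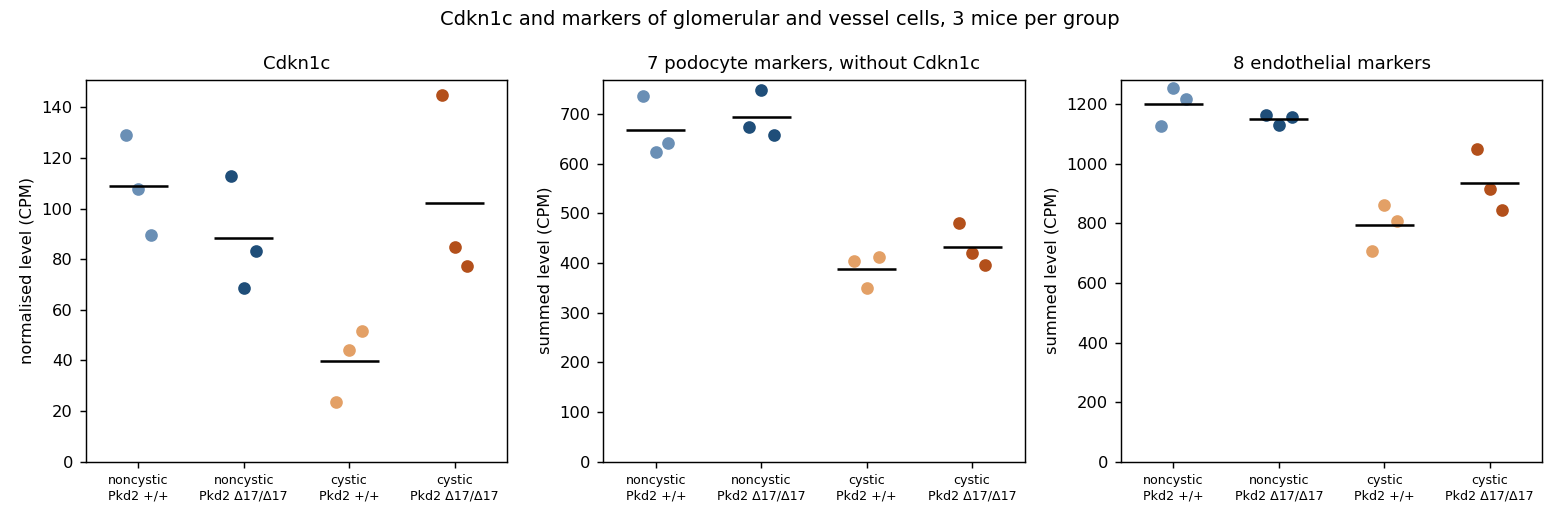
Level of *Cdkn1c* (left), summed level of 7 podocyte genes without it (middle) and of 8 endothelial genes (right), in CPM from 0, in each mouse by group; lines are group means. *Cdkn1c* in the cystic Δ17/Δ17 mice (77.2 to 145 CPM) is within the noncystic range or above it, whereas the podocyte sum there (396 to 481 CPM) stays below the noncystic mice (623 to 749 CPM).

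*Grb10* (ENSMUSG00000020176, chromosome 11, 11930508 to 12038683, reverse strand) encodes an adaptor that dampens insulin and insulin-like growth factor receptor signalling. It was 70.3, 59.9 and 68.5 CPM in noncystic and 84.4, 93.1 and 86.2 CPM in cystic *Pkd2* +/+ mice. In Δ17/Δ17 mice the values were 59.8, 70.6 and 58.1 CPM in noncystic and 85.8, 88.5 and 82.1 CPM in cystic mice. All 6 cystic mice lay above all 6 noncystic mice, by a small and even step. *Grb10* had log2 fold changes of 0.41 ± 0.09 (adjusted p = 0.00147) and 0.44 ± 0.09 (adjusted p = 0.00112), and this call held under every alternative run. *Igf2*, the growth factor itself, held between 0 and 10 counts per mouse and did not pass in any comparison. Of its exon bases, 62.8% overlap *Gm49394* on the same strand, where gene counting leaves reads out as ambiguous, so this count does not show the level of *Igf2*. Its receptor for uptake, *Igf2r*, changed by -0.14 ± 0.08 (adjusted p = 0.219) with *Pkd2* +/+ and by -0.27 ± 0.08 (adjusted p = 0.0192) with the deletion.

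*Dlk1* (ENSMUSG00000040856, chromosome 12, 109452823 to 109463336, forward strand) encodes a membrane protein that holds back fat cell formation. It was 3.58, 6.50 and 4.07 CPM in noncystic and 0.697, 0.441 and 2.12 CPM in cystic *Pkd2* +/+ mice. With the deletion it was 5.07, 3.93 and 3.96 CPM in noncystic and 2.5, 0.636 and 1.78 CPM in cystic mice. All 6 cystic mice lay below all 6 noncystic mice. *Dlk1* had log2 fold changes of -2.12 ± 0.47 (adjusted p = 0.0023) and -1.39 ± 0.46 (adjusted p = 0.037). The call with the deletion did not hold without mouse 22, 23, 24, 29 or 30 (fold changes from -1.01 to -1.48, adjusted p from 0.059 to 0.143) or with scaling by library totals (adjusted p = 0.0567). Fat genes moved with *Dlk1*. The 8 fat genes summed to 337 to 911 CPM in noncystic mice, and 29.05 to 275 CPM in cystic ones, with *Dlk1* highest in mouse 20, which had the highest fat sum. Without mouse 20 the first fold change of *Dlk1* was -1.84 and still passed. Without mouse 27, the highest of its group at 2.12 CPM and a mouse with raised adrenal genes, it was -3.01 and passed. In cystic *Pkd2* +/+ kidneys 5 of the 8 were called lower, among them *Cidea* (-3.18 ± 0.62) and *Ucp1* (-2.27 ± 0.72), and *Lep* was higher (2.61 ± 0.46). The part of fat tissue in the *Dlk1* result was not tested.

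*Mest* (ENSMUSG00000051855) encodes a protein with a hydrolase fold. It was 13.2, 10.4 and 14.4 CPM in noncystic and 16.3, 19.5 and 14.3 CPM in cystic *Pkd2* +/+ mice. After the deletion *Mest* was 8.88, 11.4 and 10.6 CPM in noncystic and 26.8, 19.8 and 20.1 CPM in cystic mice. The *Pkd2* +/+ groups overlapped through mouse 27, and the Δ17/Δ17 groups were apart. The log2 fold changes were 0.39 ± 0.16 (adjusted p = 0.0792) and 1.11 ± 0.16 (adjusted p = 9.91e-05). The first passed the test without mouse 27 (adjusted p = 0.0483), with scaling by library totals (adjusted p = 0.0152) and with limma-trend (adjusted p = 0.0143). It also passed with no filter on low counts (adjusted p = 0.0278), a fit in which adjusted p fell far for other members at much the same fold changes. Of its exon bases, 23.1% overlap *Copg2* on the other strand, so its count is uncertain. *Copg2* itself changed by 0.00 ± 0.07 or 0.02 ± 0.07 between cystic and noncystic kidneys.

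*Sgce* (ENSMUSG00000004631, chromosome 6, 4674350 to 4747207, reverse strand) encodes epsilon-sarcoglycan, a membrane protein of the dystrophin complex. It was 20.9, 21.4 and 21.1 CPM in noncystic and 39.7, 47.0 and 44.4 CPM in cystic *Pkd2* +/+ mice. After the deletion *Sgce* was 21.7, 18.3 and 17.6 CPM in noncystic and 32.8, 36.5 and 40.7 CPM in cystic mice. All 6 cystic mice lay above all 6 noncystic mice. The log2 fold changes were 1.05 ± 0.11 (adjusted p = 1.23e-06) and 0.93 ± 0.11 (adjusted p = 1.02e-05), the smallest adjusted p among the members in each comparison. *Peg10*, which faces *Sgce* across a shared control region, did not pass with *Pkd2* +/+ (0.41 ± 0.58). It passed with the deletion (1.68 ± 0.58, adjusted p = 0.0465), where mouse 30, the mouse with the highest adrenal sum, held 10.53 CPM and the other 11 mice 0.98 to 2.99 CPM. Without mouse 30 it was 0.17 ± 0.36 (adjusted p = 0.818).

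Fibroblast genes were higher beside *Sgce*, *Ndn* and *Plagl1*. The 10 fibroblast genes summed to 1888 to 2371 CPM in noncystic mice and reached 3228 to 5326 CPM in cystic ones. In cystic *Pkd2* +/+ kidneys 7 of the 10 were called higher, such as *Mfap4* (2.33 ± 0.13), and 2 lower, *Pdgfra* (-0.56 ± 0.14) and *Lum* (-0.70 ± 0.25). The 10 genes of cycling cells summed to 232 to 372 CPM in noncystic mice, against 583 to 757 CPM in cystic ones, and all 10 were called higher with either *Pkd2* genotype. The part of these cells in the members' results was not tested.

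*H19*, a long noncoding RNA expressed strongly in the embryo, was 10.1, 15.8 and 10.6 CPM in noncystic and 24.6, 6.66 and 8.66 CPM in cystic *Pkd2* +/+ mice. After the deletion *H19* was 10.2, 7.86 and 8.47 CPM in noncystic and 6.15, 4.06 and 6.73 CPM in cystic mice. Mouse 25 was the highest of all 12, and the other cystic *Pkd2* +/+ mice lay below the 3 noncystic *Pkd2* +/+ mice. The log2 fold change with *Pkd2* +/+ was 0.14 ± 0.35 (adjusted p = 0.812), and without mouse 25 it was -0.66 (adjusted p = 0.0404). With the deletion it was -0.65 ± 0.37 (adjusted p = 0.251), and all 3 cystic mice lay below all 3 noncystic mice. That value passed in the fit without mouse 25 (-0.65, adjusted p = 0.0341). The result for *H19* thus depended on mouse 25, in which liver genes were high. *Alb*, the serum albumin gene of the liver, was 355 CPM in mouse 25, 91.2 CPM in mouse 30, 16.4 CPM in mouse 19 and at most 1.61 CPM in the other mice. The part of liver tissue in the *H19* value was not tested.

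*Meg3*, a long noncoding RNA of the *Dlk1* cluster, was 9.29, 8.61 and 6.97 CPM in noncystic and 21.4, 11.45 and 15.1 CPM in cystic *Pkd2* +/+ mice. With the deletion it was 8.23, 9.33 and 8.03 CPM in noncystic and 10.4, 11.1 and 19.6 CPM in cystic mice. All cystic mice lay above all noncystic mice, and the highest values were in mice 25 and 30. The log2 fold changes were 0.95 ± 0.24 (adjusted p = 0.00566) and 0.69 ± 0.24 (adjusted p = 0.0504). Without mouse 25 the first was 0.68 and still passed. Without mouse 30 the second was 0.34. *Rian*, a further noncoding RNA read from the same copy of this cluster, also rose with *Pkd2* +/+ (1.10 ± 0.34, adjusted p = 0.0201). *Dlk1* and *Meg3*, which lie in the same cluster and are read from opposite copies, moved in opposite directions with *Pkd2* +/+. The ratio of *Dlk1* to *Meg3* CPM was 0.385 to 0.755 in the noncystic mice, against 0.0326 to 0.241 in the cystic ones.

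**Figure D3:**
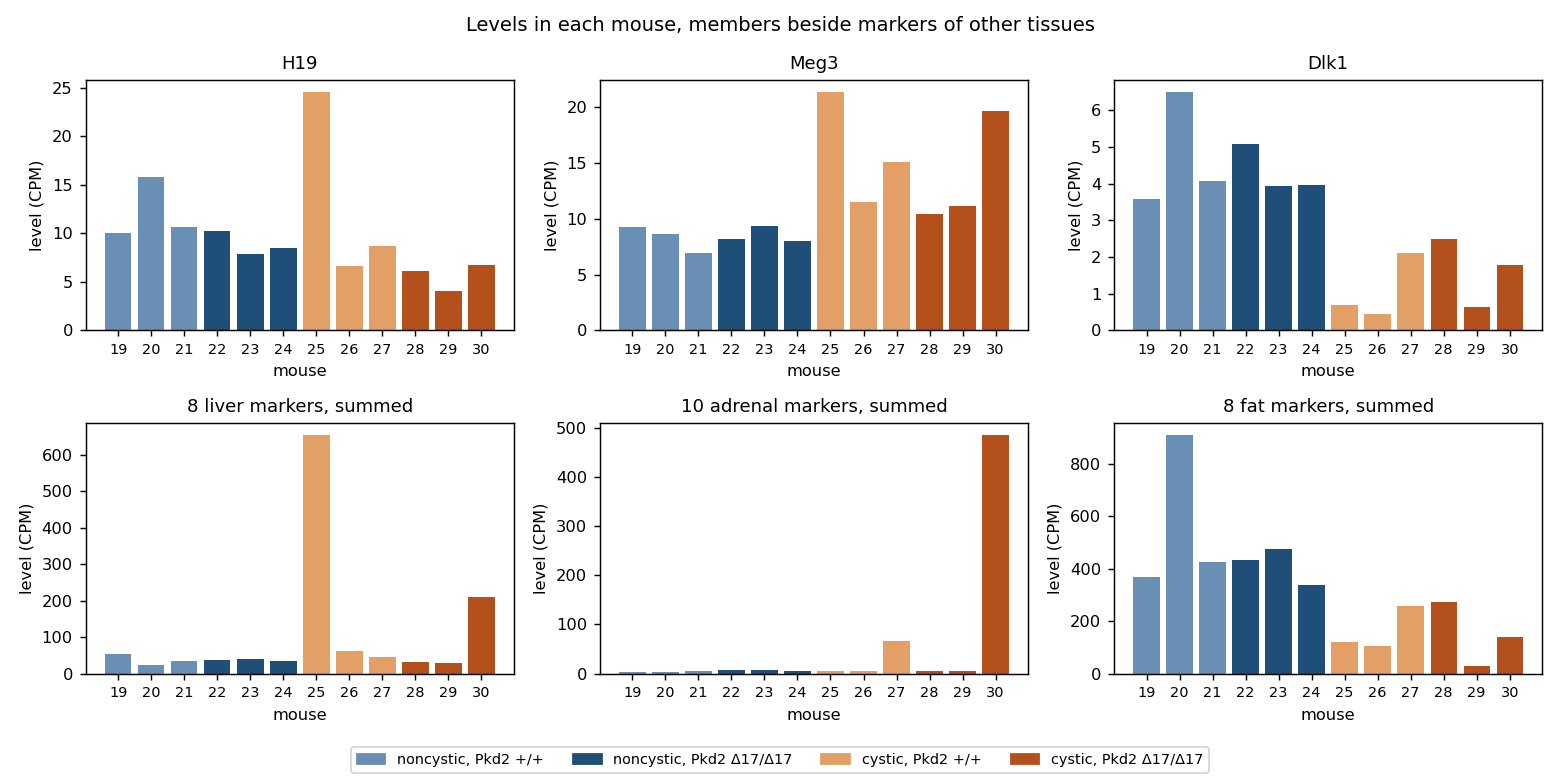
Levels in CPM (vertical axes from 0) in each of the 12 mice, coloured by group, of *H19*, *Meg3* and *Dlk1* (top) and of summed liver, adrenal and fat genes (bottom). Mouse 25 is highest for *H19* (24.6 CPM), *Meg3* (21.4 CPM) and the liver sum (654 CPM), mouse 30 is highest for the adrenal sum (485 CPM), and mouse 20 is highest for *Dlk1* (6.50 CPM) and the fat sum (911 CPM).

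The genes beside the members in their imprinted clusters moved unevenly. Of 22 such genes 21 were tested, and with *Pkd2* +/+ 4 were called higher and 7 lower in cystic kidneys. The shares of all genes tested were 16.9% called higher and 14.2% lower. *Zim1* (-1.93 ± 0.21), *Slc22a18* (-1.40 ± 0.12), *Asb4* (1.21 ± 0.31) and *Phactr2* (1.17 ± 0.12) had the largest log2 fold changes. *Slc22a18*, *Phlda2* (-0.58 ± 0.19) and *Kcnq1ot1* (-0.60 ± 0.18), all of the *Cdkn1c* cluster, were lower together with *Cdkn1c* in these *Pkd2* +/+ mice. In Δ17/Δ17 mice *Slc22a18* was still lower, at 90.2 to 122 CPM in cystic and 218 to 233 CPM in noncystic mice. The groups of *Phlda2*, *Kcnq1ot1* and *Cdkn1c* overlapped there. *Ddc*, next to *Grb10*, was lower (-0.97 ± 0.10) where *Grb10* was higher. *Usp29* was lower (-1.01 ± 0.37, adjusted p = 0.0462), as was its neighbour *Peg3*. *Mirg* (1.12 ± 0.57, adjusted p = 0.164) did not pass. *Rtl1* held at most 5 counts in a mouse and *Magel2*, next to *Ndn*, at most 3, so no fold is given. With the deletion, 4 of the 21 were called higher and 3 lower, where 12.8% of all genes tested were called higher and 10.2% lower. Without mouse 30, 1 of the 21 was called higher and 4 lower.

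**Figure D4:**
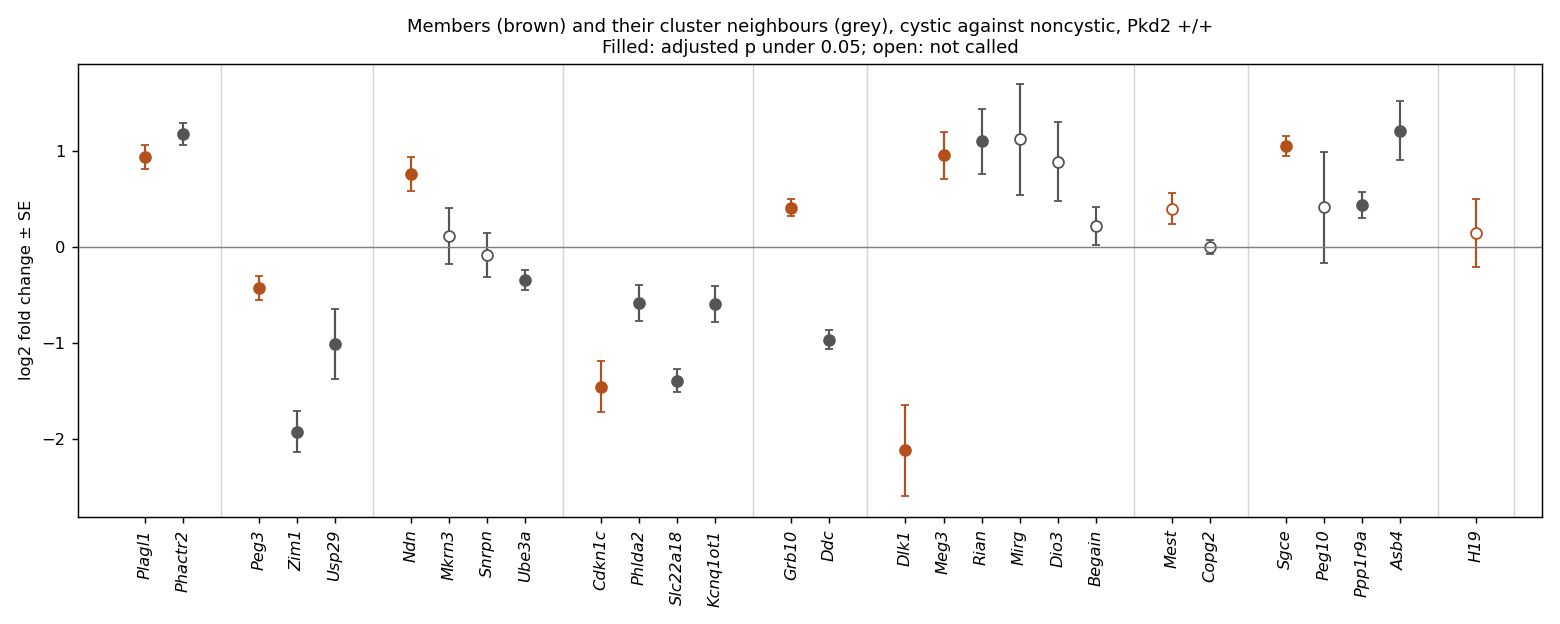
Log2 fold change ± SE (vertical axis) of the members (brown) and of neighbours in their clusters (grey; *Magel2*, *Rtl1* and *Igf2*, with few counts, are left out) between cystic and noncystic *Pkd2* +/+ kidneys; grey lines separate clusters and filled points passed the test. In the *Cdkn1c* cluster all 4 genes shown are below 0, and in the *Dlk1* cluster *Dlk1* (-2.12) and *Meg3* (0.95) lie on opposite sides.

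Over all imprinted genes of the lists that are not members, 45 of 46 were tested. With *Pkd2* +/+ 7 were called higher and 10 lower (37.8%, against 31.1% of all genes tested). With the deletion 9 were called higher and 6 lower (33.3%, against 23% of all genes tested). Part of this depended on mouse 30. Without it the 21 cluster neighbours gave 1 higher and 4 lower, against 4 and 3. The 24 imprinted genes outside the clusters gave 4 higher and 2 lower, against 5 and 3. Over all genes 4423 of 24580 passed without that mouse, and the share of the 45 genes is not given for that fit. Among 6 further genes of the network around *Plagl1*, *Slc38a4*, an amino acid transporter of the placenta, was 4.07 to 6.75 CPM in noncystic mice and lay between 29.8 and 47.9 CPM in the cystic ones. Its log2 fold changes were 2.96 ± 0.17 and 2.81 ± 0.18. *Gatm*, the first enzyme of creatine synthesis and abundant in the proximal tubule, fell (-1.28 ± 0.17 and -1.22 ± 0.17). *Igf2*, *Igf2r*, *Dcn* and *Gnas* did not pass with *Pkd2* +/+. With the deletion *Dcn*, a matrix proteoglycan, was higher (0.44 ± 0.10, adjusted p = 0.00481) and *Igf2r* lower, as given above. Of 24 imprinted genes outside the clusters, some of which are also in the network list, 3 were called higher and 3 lower. These calls were with *Pkd2* +/+, where 16.9% of all genes tested were called higher and 14.2% lower. *Nnat*, neuronatin, was among the higher ones (2.06 ± 0.17, and 1.55 ± 0.17 with the deletion).

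The second question was whether removing the miR-17 motif of *Pkd2* altered the members in cystic kidneys. This comparison shares the cystic *Pkd2* +/+ mice with the first, so the values of both rest on the same mice. Of the 10 members 1 passed, *Cdkn1c*, where 2.23% of all genes tested passed. *Cdkn1c* was higher with the deletion, with a log2 fold change of 1.37 ± 0.27 (adjusted p = 0.0153). All 3 Δ17/Δ17 mice (77.2 to 145 CPM) lay above all 3 *Pkd2* +/+ mice (23.5 to 51.5 CPM). Without mouse 28, the highest, the value was 1.03 with an adjusted p of 0.0902. With only the compared groups in the fit it was 1.37 with an adjusted p of 0.0579. Without mice 27 and 30 it was 1.77 and passed. None of the 7 other podocyte genes passed (*Podxl* 0.41 ± 0.11, adjusted p = 0.0583), and of the endothelial genes *Tek*, an angiopoietin receptor, did (0.50 ± 0.11, adjusted p = 0.0317). Mouse 28 was also the highest of the cystic mice for the podocyte and endothelial sums.

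*Peg3* and *Mest* were also without overlap between the cystic groups, both higher with the deletion, so that 3 of 10 members were apart, against 19% of all genes. Their log2 fold changes were 0.25 ± 0.12 (adjusted p = 0.382) and 0.41 ± 0.16 (adjusted p = 0.223), and neither passed. *H19* had the other large value, -1.25 ± 0.37 (adjusted p = 0.0964), and without mouse 25 it was -0.44. It passed without mouse 26 (adjusted p = 0.0216), which leaves mouse 25 and mouse 27 in its group. *Dlk1* had 0.60 ± 0.50 (adjusted p = 0.657), on overlapping groups of low counts. *Plagl1* (-0.15 ± 0.12), *Grb10* (-0.04 ± 0.09) and *Meg3* (-0.22 ± 0.23) lay near 0. *Sgce* (-0.25 ± 0.10) and *Ndn* (-0.38 ± 0.17) were slightly below it. The median over the members was -0.10. Of the 45 other imprinted genes 1 passed, *Nnat*, at 26.4, 27.9 and 35.0 CPM with *Pkd2* +/+ and 17.8, 18.0 and 17.8 CPM with the deletion (-0.74 ± 0.16, adjusted p = 0.0241).

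**Figure D5:**
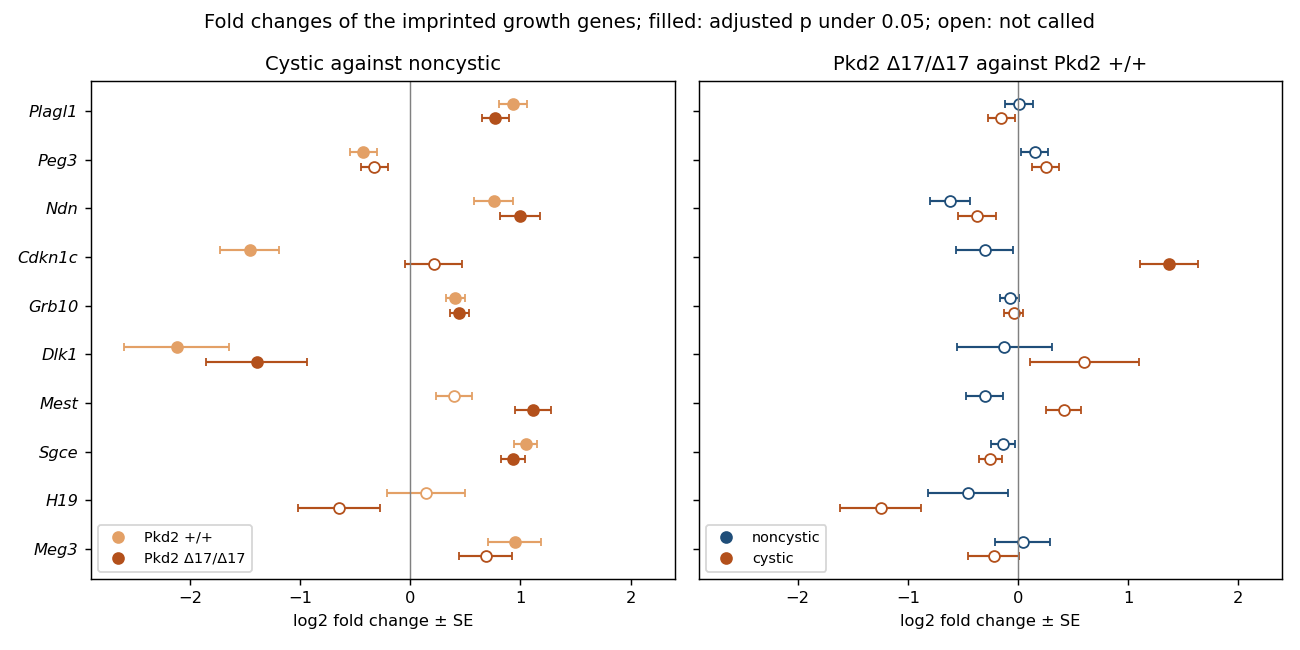
Log2 fold change ± SE (horizontal axis) of the 10 members between cystic and noncystic kidneys (left) and between *Pkd2* Δ17/Δ17 and *Pkd2* +/+ kidneys (right); filled points passed the test. On the left 8 members pass with *Pkd2* +/+ and 6 with the deletion, and on the right *Cdkn1c* in cystic kidneys (1.37) is the filled point.

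In noncystic kidneys the deletion left 0 of 10 members past the test, where 0.00406% of all genes tested passed. *Ndn* was the 1 member with an unadjusted p under the threshold in edgeR's test, and limma-trend and DESeq2's Wald test also called 0 members. *Ndn* was 14.2 to 15.7 CPM with the deletion and 17.7 to 28 CPM without, so its groups were apart (-0.62 ± 0.18, adjusted p = 0.771). It was 1 of 10 members without overlap, against 10.8% of all genes. The other log2 fold changes ran from -0.46 (*H19*) to 0.15 (*Peg3*).

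Whether the cystic difference itself depended on the *Pkd2* genotype was tested as an interaction. None of the 10 members passed, where 0.0122% of all genes tested passed. *Cdkn1c* and *Mest* had an unadjusted p under the threshold in edgeR's test, and limma-trend and DESeq2's Wald test called 0 members. The interaction was 1.67 ± 0.37 for *Cdkn1c* (adjusted p = 0.150) and 0.72 ± 0.23 for *Mest* (adjusted p = 0.387) on the log2 scale. A call with *Pkd2* +/+ and none with the deletion, as for *Cdkn1c*, *Peg3* and *Meg3*, or the converse, as for *Mest*, is therefore not shown to be a difference between the genotypes.

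Genes whose levels ran most alike with each member over the 12 mice were ranked by Pearson's r of log2 CPM among 13691 genes. These are descriptions over n = 12, and the mice share the division into cystic and noncystic groups and the libraries. *Sgce* ran with *Mmp14* (r = 0.996), a matrix metalloproteinase, and with *Ccdc136* and *Tspan8* (both 0.992). *Grb10* ran with *Tspyl3* (0.981), *Bicd2* (0.976) and *Pgr* (0.971), and *Ndn* with *Agap3* (0.98), *Wrb* (0.968) and *Sphk1* (0.964). *Plagl1* ran with *Fam53b* (0.972), *Fgfr2* (0.970), a fibroblast growth factor receptor, and *Gm13652* (0.966). *Mest* ran with *Rsrc1* (0.955), *Lrp12* (0.954) and *Lancl2* (0.937). *Meg3* ran with *Il17rb* (0.953), *Gramd1a* (0.946) and *Clcf1* (0.932). *Peg3* ran with *Tob2* (0.938) and *Tob1* (0.937), a pair of antiproliferative genes, and *Arhgap26* (0.935). *Cdkn1c* ran with *Pcdh12* (0.945), a protocadherin of endothelial cells, *Foxc1* (0.935) and *Tmed7* (0.925). *Dlk1* ran with *Bckdk* (0.950), *Plin5* (0.938), a lipid droplet gene, and *Clec3b* (0.934). *H19* ran with *Rbp4* (0.932), the retinol carrier made by the liver, *Abcb1a* (0.864) and *Fibin* (0.863). After each group's mean was taken out, r with *Rbp4* was 0.973 and with *Fam53b* 0.654, so the former ran together within groups more closely than the latter. Among the members themselves the highest r was 0.895, between *Grb10* and *Sgce*, and it was -0.069 after the group means were taken out.

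The promoter of *Peg3* is shown because it alone among the members' RefSeq promoters holds the letters GGGGCCCC, known as a binding motif of the *Plagl1* protein. Promoters of 7 members were matched (windows of 250 bases before to 50 after each start). *H19*, *Cdkn1c* and *Sgce* had no entry. The motif reads the same on both strands. It lies 201 bases before the *Peg3* start in the window chr7:6730370-6730669 (GRCm38.p6, reverse strand), in capitals.
*Peg3* window: gactctgcttgGGGGCCCCtaacactgact
Of all 32817 promoters, 1.07% hold it. The match is a description of letters in this window, not a site. The median ratio of observed to expected CpG was 0.59 over the 11 promoters of the members and 0.383 over all promoters. Of these 11, 5 reached 0.6, against 35.8% of all promoters. The 11 come from 7 members, and *Grb10*, *Meg3* and *Mest* each hold more than 1, with some of *Mest* nearly the same window.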

How the data were processed

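Total RNA of whole kidneys was sequenced in 12 mice, grouped by the labels. The authors trimmed paired reads with Trim Galore 0.6.3, aligned them to GRCm38 with STAR 2.5.3a and deposited its gene counts as raw, unscaled whole numbers. The strand column is not given in the sources used here. Of 54532 identifiers, 54495 were matched to GENCODE M21. Lengths are merged exons.

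Counts were fitted with edgeR 4.0.16 in R 4.3.3 (quasi-likelihood test, TMM factors), with 1 mean for each of the 4 groups and 8 residual degrees of freedom. A gene was tested where its average log2CPM reached -3. Benjamini-Hochberg adjustment ran over 24642 genes, with a threshold of 0.05. The study's limma-trend on library totals (limma 3.58.1) and DESeq2 1.42.0 were alternatives, since raw counts allow a count test. So were other library scalings and filters, *Xist* as a covariate, the compared groups only and leaving out each mouse. In 5 simulations of the cystic comparison with *Pkd2* +/+, 200 of 24642 genes were changed, none of them among the lowest levels. Of these, 97.4% of 4-fold and 81.6% of 2-fold changes were recovered, with 6.24% of calls false. In the data 31.1% of genes were called, so these rates do not give recovery or false calls there. Mice of a group differed by more than sampling noise (chi-square per degree of freedom 8.88 to 24.3).

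Members and gene lists were chosen with earlier results of these data known. Named were all members and their nearest imprinted partners, up to 4 called genes a list by size of fold change, and the 3 genes most correlated with each member (average log2CPM of at least 1). Other genes, the liver list, the fit without mice 27 and 30 and the non-member values without mouse 30 were chosen after values were seen.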

Additional observations from a re-analysis of the deposited data

How the results depend on the processing

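Of 104 recomputed counts of called members, 98 stayed within 1.5 times the reported count. That range is wide for 10 members. Between cystic and noncystic Δ17/Δ17 mice, 9 passed with no filter, against 6, and this counts as within it. For the deletion in cystic kidneys, 3 members passed with no filter on low counts, 0 passed with the compared groups only, and leaving out a mouse gave 0 (without mouse 28) to 2 (without mouse 26), against 1. With no filter, 1 member passed for the deletion in noncystic kidneys and 2 for the interaction, against 0 each. In that edgeR fit adjusted p fell far while fold changes hardly moved. It was 9.82e-34 for the *Cdkn1c* interaction (1.67) and 1.21e-10 for *H19* with the deletion in cystic kidneys (-1.25). Neither passed in the main fit. Calls with no filter are therefore only listed here and are not taken as support for a member. Of the 50 member results, 25 kept their direction and side of the threshold under every alternative. Scaling by library totals moved the median of all genes by 0.16 (*Pkd2* +/+) and 0.15 (Δ17/Δ17) on the log2 scale between cystic and noncystic kidneys, and the share of calls that were higher from 54.4 to 71.7% and from 55.7 to 76.3%. The calls of *Plagl1*, *Sgce*, *Ndn*, *Grb10* (both genotypes), *Cdkn1c*, *Dlk1* and *Meg3* (*Pkd2* +/+) and *Mest* (Δ17/Δ17) held under all alternatives, except that *Dlk1* was not tested where every mouse had to hold 10 counts. With the motif deleted, *Meg3* passed with library totals, limma-trend, DESeq2's Wald test, no filter, and without mouse 25, 26, 28 or 29. *Peg3* passed with DESeq2's Wald test, no filter, at least 10 counts in every mouse, and without mouse 22 or 24, and *H19* with no filter, the compared groups only and without mouse 25. Directions turned, with the cause not tested, in 18 of 1035 recomputed member results. Leaving out a mouse gave *H19* with *Pkd2* +/+ -0.66 (without 25) to 0.46, and *Cdkn1c* with the motif deleted -0.12 (without 28) to 0.42. For the deletion in cystic kidneys it gave *Meg3* -0.57 to 0.049 and *Plagl1* -0.25 to 0.048 (both turned without 25), and *Grb10* -0.069 to 0.0031 (without 26). For the deletion in noncystic kidneys it gave *Dlk1* -0.29 to 0.17 (without 20), *Meg3* -0.073 to 0.13 (without 21 or 23), *Peg3* -0.056 (without 23) to 0.24 and *Plagl1* -0.054 to 0.042 (without 20, 21 or 24), and *Xist* as a covariate gave *Plagl1* -0.011. For the interaction it gave *H19* -1.11 to 0.016, *Meg3* -0.61 to 0.0071 and *Plagl1* -0.26 to 0.041 (all turned without 25), and *Grb10* -0.018 to 0.13 (without 19 or 24). Over all genes, the deletion in cystic kidneys called 549, against 1639 with no filter, 1128 by DESeq2 and 167 with the compared groups only. The deletion in noncystic kidneys called 1, against 124 with no filter and 3 by DESeq2, and the interaction 3, against 566 and 134. Without mice 27 and 30, 7 members passed with *Pkd2* +/+, 6 with the deletion and 1 for the deletion in cystic kidneys. Of the 24533 genes tested in that fit, 6543, 4166 and 322 passed, in the same order. No paired analysis was possible because the mouse numbers differ between the groups. Groups of 3 mice limit what could be detected for *Dlk1*, whose counts fell to 9 in a mouse.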

Other observations

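Growth genes of the fetus that are not imprinted were called higher or not called. Of 12 such genes, 6 were called higher and 0 lower in cystic *Pkd2* +/+ kidneys, and 5 higher and 0 lower with the motif deleted (edgeR, as for the members), and the others did not pass. Over all genes tested, 16.9% were called higher and 14.2% lower with *Pkd2* +/+, and 12.8% and 10.2% with the motif deleted. *Sox11* and *Sox4*, transcription factors of immature cells, had log2 fold changes of 1.61 ± 0.22 and 1.49 ± 0.14 with *Pkd2* +/+. *Hmga2*, a chromatin protein of embryonic growth, followed with 1.19 ± 0.27, and *Ezh2*, the histone methyltransferase, with 0.98 ± 0.11. *Lin28b* and *Igf2bp3* did not pass. The deletion called 0 of the 12 in cystic or noncystic kidneys.

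None of the nephron progenitor genes was called higher with them. Of 10 genes, 6 were called lower and 0 higher with *Pkd2* +/+, and 3 lower with the deletion. *Eya1* (-1.85 ± 0.59), *Cited1* (-1.30 ± 0.23), *Osr1* (-1.05 ± 0.35) and *Sall1* (-0.83 ± 0.10) had the largest log2 fold changes. Their summed level was 178 to 196 CPM in noncystic and 124 to 147 CPM in cystic mice. *Six2* had group means of 0.159 to 0.182 CPM, against 42.6 to 89.3 CPM for *Sall1*. The sum thus rests on a few genes and does not measure progenitor cells. *Sall1* was also called higher with the deletion in cystic kidneys (0.40 ± 0.10, adjusted p = 0.0406).

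Of 8 genes that define nephron segments, 6 were called lower with *Pkd2* +/+ and 5 with the motif deleted. The deletion in cystic kidneys called 2 of them higher, *Slc12a1*, the sodium transporter of the loop of Henle (0.93 ± 0.10, adjusted p = 0.000704), and *Lrp2*, the proximal tubule receptor megalin (0.64 ± 0.14, adjusted p = 0.0308). Of the 10 adrenal genes, 8 were called higher with the deletion between cystic and noncystic mice, where mouse 30 held most of the sum, and 0 with *Pkd2* +/+. Without mouse 30 these counts were 0 and 5. In the cystic *Pkd2* +/+ group the adrenal sum was 67.2 CPM in mouse 27, against 4.53 and 5.04 CPM in mice 25 and 26. The raised level there was thus that of mouse 27 and not of the group.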
